A study of Mus musculus with 6 samples.

Results

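The sodium-potassium pump keeps sodium low and potassium high inside every animal cell, and in the kidney it drives the reabsorption of filtered sodium. This report follows the transcripts of 7 genes of that pump, the beta subunit genes Atp1b1 and Atp1b3 and the FXYD regulator genes Fxyd2, Fxyd3, Fxyd4, Fxyd5 and Fxyd6, out of 31053 genes measured in mouse kidney and in mouse mammary tumor. The members were chosen by their symbols in the gene tables of both tissues, and all 7 were found in each. Kidneys came from male C57BL/6 mice of 12 weeks, and tumors came from female MMTV-PyMT mice of 10 weeks. MMTV-PyMT mice carry the polyoma middle T oncogene behind a promoter active mainly in mammary epithelium, so their tumors stand for that 1 oncogene. In each tissue, the 60 min control was minced and digested in 0.25% type I collagenase for 60 min. The 15 min and 60 min platform libraries were cells collected after those intervals from a microfluidic digestion device with the same enzyme. A single pass through a dissociation and filter device followed. The paper describes intervals as successive collections from the same tissue. The 60 min platform library thus holds cells released after the 15 min cells had been taken out. The paper also states that all conditions of a replicate used tissue of the same mouse. Cells of all groups were treated with DNase I and red cell lysis buffer, sorted to leave out dead cells and sequenced as single cells. Each of the 6 libraries is the single library of its condition, so no difference between conditions could be tested, and intervals below cover counting error only.

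A level is given as CPM, the UMIs (unique transcript tags) of a gene per 1000000 UMIs of the same cells. Where 3 values of a tissue stand in a row, they are those of the control, the 15 min and the 60 min library. Since each tag counts 1 captured transcript end, levels of different genes were set side by side without length scaling, although capture may differ between genes. After the filters of the study, 5886 to 9936 cells per kidney library and 5736 to 6024 cells per tumor library were kept, with 33644880 to 61434200 and 50661627 to 58014175 UMIs. The median share of mitochondrial UMIs was 20.4% in the 15 min kidney library against 7.38% in the control and 8.59% at 60 min. It was 6.55% to 7.54% in the tumor libraries. Cell barcodes were shared between kidney libraries in 53 to 211 cases per pair and between tumor libraries in 16 to 21 cases, and leaving out the 392 kept kidney cells and the 86 kept tumor cells concerned changed no count given below. Cells were typed by gates on marker genes that include no member, and a cell type named here means the cells that passed its gate. The gates took 86.6% to 97.6% of the kept cells per library. They gave 13154 proximal tubule, 496 thick ascending limb, 264 distal convoluted tubule, 251 principal and 121 intercalated cells in the kidney, and 8997 luminal and 253 basal epithelial cells in the tumor. Only 5 podocytes and 46 stromal cells were found in the kidney, and no level is drawn from podocytes.

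The pump is built from a catalytic subunit, which moves the ions, and a beta subunit, which the catalytic subunit needs to fold and to reach the plasma membrane. FXYD proteins are small proteins that cross the membrane and bind the pump, where they tune its affinity for sodium and potassium and its turnover. They are named after a short invariant stretch of amino acids at the outer face of the membrane. Fxyd2 encodes the gamma subunit known from kidney tubules. Fxyd4, also called CHIF, is known from the collecting duct and is induced by corticosteroids. Fxyd3, or Mat-8, was found in mammary tumors, and Fxyd5, or dysadherin, is known for weakening cell adhesion. Fxyd6 is known from brain and several epithelia.

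The stretch that gives the FXYD family its name was read from the coding sequences of GENCODE vM21 transcripts (GRCm38, the same assembly as the mm10 used for these data). It is shown because the 5 genes share it while their transcripts went to quite different cells. Capitals mark the 4 codons of the motif, and 3 codons on each side are in lower case.
Fxyd2: gagaatcccTTCGAGTACGACtatgaaacc
Fxyd3: aatgatcctTTCTACTATGATtggtacagc
Fxyd4: gacagtcccTTCTACTATGACtgggagagc
Fxyd5: aacaaccccTTCTACTACGATgatactacc
Fxyd6: aaggatcctTTCTATTACGACtaccagacc
The motif lay at codons 17 to 20 of 63 in Fxyd2, 30 to 33 of 87 in Fxyd3 and Fxyd4, 29 to 32 of 93 in Fxyd6 and 135 to 138 of 177 in Fxyd5. Fxyd5 thus had the longest coding part before it. Between any pair of the 5 genes, 17 to 22 of the 30 bases were identical, and 8 to 11 of the 12 bases of the motif. Fxyd2 lies on chromosome 9 at 45399669 to 45410278, plus strand, and Fxyd6 lies just before it on the same strand at 45370185 to 45396159. Fxyd3 (chromosome 7, 31068172 to 31076704) and Fxyd5 (chromosome 7, 31032722 to 31042481) are neighbours on the minus strand, and Fxyd3 overlaps Lgi4 on the other strand. Fxyd4 lies on chromosome 6 at 117933559 to 117937692. Among the beta subunit genes, Atp1b1 lies on chromosome 1 at 164437109 to 164458355, where it overlaps Nme7 on the other strand, and Atp1b3 on chromosome 9 at 96332655 to 96364442.

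Over whole libraries, the kidney carried mostly Fxyd2 and Atp1b1 and the tumor mostly Fxyd3. Fxyd2 stood at 6398, 6725 and 3946 CPM in the kidney libraries and at 4.77 to 5.87 in the tumor libraries. Fxyd3 showed the opposite, with 1044, 1285 and 714 CPM in the tumor libraries, and with 10, 0 and 17 UMIs in the kept cells of the kidney libraries, where the 0 allows up to 3 UMIs. Among all deposited cells, before the filters, the kidney libraries held 113, 20 and 51 Fxyd3 UMIs. Fxyd4 was a kidney transcript at 48.4, 9.16 and 40.4 CPM against 0.103 to 0.217 in the tumor. Fxyd5 and Atp1b3 were found in both tissues, Fxyd5 at 244, 38.7 and 260 in the kidney and 340, 225 and 366 in the tumor, and Atp1b3 at 31.3 to 74.2 and 61.4 to 90.7. A library's level moves with its makeup, and the 15 min kidney library held 7186 proximal tubule cells among 8188 gated cells, so the levels below are within cell types.

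**Figure D1:**
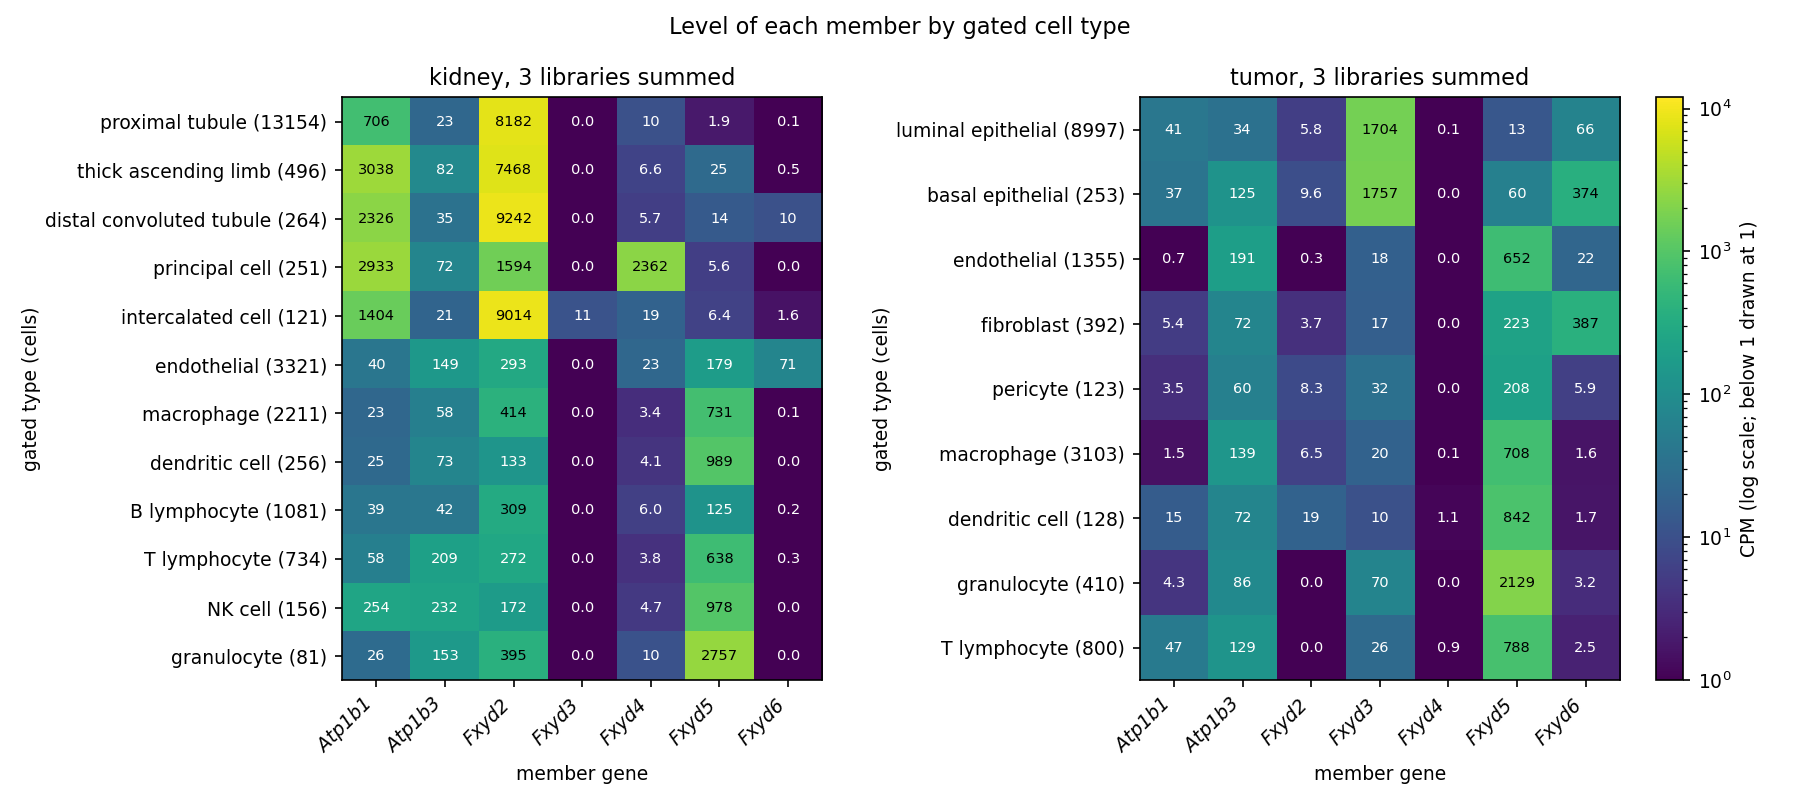
Level of each member in each gated cell type of the kidney and the tumor, with the libraries of a tissue summed. Colour is CPM on a log scale with values below 1 drawn at 1. In the kidney, Atp1b1 and Fxyd2 are both highest along the nephron, and in the tumor, Fxyd3 is highest in both epithelia.

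Atp1b1 was the main beta subunit transcript of the nephron. With the 3 kidney libraries summed, it stood at 3038 CPM in thick ascending limb cells, 2933 in principal cells, 2326 in distal convoluted tubule cells, 1404 in intercalated cells and 706 in proximal tubule cells. The lowest and highest library of each of these types did not overlap with those of the next type, except between thick ascending limb (2913 to 3690) and principal cells (2546 to 3216). In proximal tubule cells, Atp1b1 stood at 510 (500 to 520, exact Poisson 95% interval), 785 (778 to 792) and 672 CPM (660 to 684). Distal convoluted tubule cells held 2090, 2532 and 2384 in the same order. Both platform libraries were above the control in these types, but not in intercalated cells (1439, 1296 and 1419) or in thick ascending limb cells (2936, 3690 and 2913).

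Outside the tubule, natural killer cells held more Atp1b1 than the other leukocytes of the kidney. They stood at 233, 259 and 260 CPM, from 30, 41 and 85 cells. T lymphocytes held 51.1 to 61.9, and B lymphocytes, granulocytes, dendritic cells, macrophages and endothelial cells 12.2 to 49.7 over the libraries with at least 20 such cells. In the 60 min library, Atp1b1 in natural killer cells was 38.7% of its level in proximal tubule cells, while the 8 proximal tubule markers had a median of 2.19% there. T lymphocytes were at 7.09% to 10% for Atp1b1, beside 1.65% to 2.09% for those markers. Markers of the thick ascending limb, where Atp1b1 is higher, summed to 8.02, 11.5 and 50.8 CPM in natural killer cells, with 1, 1 and 2 of 5 above 0, and the 6 principal cell markers to 0, 0 and 8.97. The part of free tubule RNA in these levels was not tested. Of the natural killer cells, 55.1% had an Atp1b1 UMI, and 20.4% after each cell was thinned to 1000 UMIs, against 11.5% and 2.65% of macrophages.

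In the tumor, Atp1b1 was low in every type. T lymphocytes stood at 58.1, 41 and 36.8 CPM, luminal cells at 33.3, 46.6 and 41 and basal cells at 20.3, 32.9 and 41.7, and these 3 types overlapped between libraries. Dendritic cells held 0, 0 and 24.5, and all 27 UMIs lay in 2 of 128 cells. Macrophages held 1.5 and endothelial cells 0.698.

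Atp1b3, whose product is a beta subunit found on many cells and known as a leukocyte surface antigen, was highest in natural killer cells and T lymphocytes in the kidney. Natural killer cells held 249, 265 and 209 CPM and T lymphocytes 198, 226 and 208, and these types overlapped. Granulocytes at 153 and endothelial cells at 149 (libraries summed) followed, then thick ascending limb at 82.5, dendritic cells at 72.9 and principal cells at 72.1. The other leukocytes were lower, with macrophages at 58.4 and B lymphocytes at 41.9. Proximal tubule cells had 21.7, 24.5 and 22.2, so that Atp1b1 was the higher beta subunit transcript by far in every tubule type, and Atp1b3 the higher one in T lymphocytes, endothelial cells and macrophages. In natural killer cells the summed levels were close, at 254 for Atp1b1 and 232 for Atp1b3. The same held for B lymphocytes, at 39.4 and 41.9. In the tumor, endothelial cells held 190, 228 and 180, macrophages 173, 121 and 127, T lymphocytes 129 (summed) and basal cells 89.7, 132 and 131. Luminal cells held 32.6, 34.7 and 33.8, below each of those types in every library and close to their own Atp1b1 level.

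**Figure D2:**
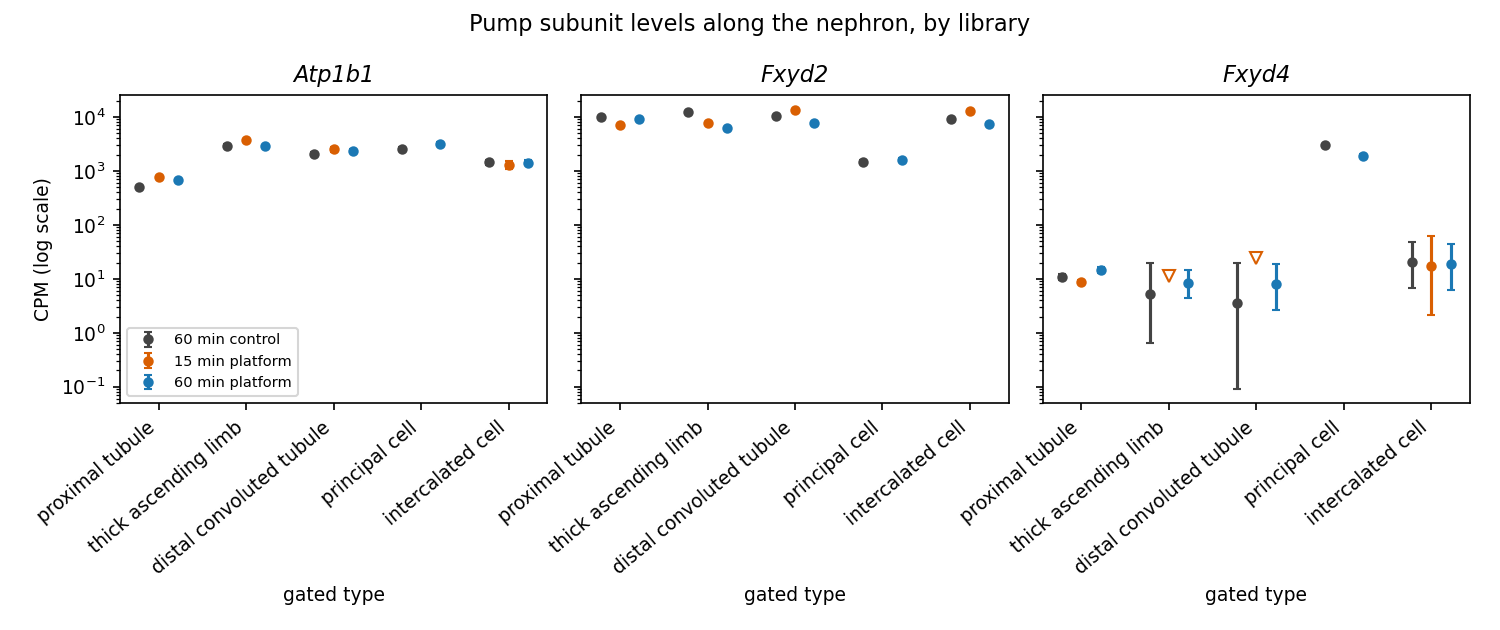
Levels of Atp1b1, Fxyd2 and Fxyd4 in the 5 tubule cell types of the kidney, in CPM on a log axis, 1 point per library with at least 20 cells of the type and its exact Poisson 95% interval. Open triangles are upper limits where a library had 0 UMIs. Fxyd4 stood at 1905 and 3014 in principal cells, where Fxyd2 was lowest among these types.

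Fxyd2 was the most abundant member and filled the tubule from the proximal part to the intercalated cells, but was several times lower in principal cells. Proximal tubule cells held 10152, 7182 and 9167 CPM, thick ascending limb cells 12089, 7771 and 6182, distal convoluted tubule cells 10384, 13696 and 7672 and intercalated cells 9114, 12679 and 7333. The libraries of these 4 types overlapped, so their order is not settled by these data. Principal cells held 1466 in the control and 1611 at 60 min, below every library of the other 4 types. The 15 min library gave 5175, from 11 principal cells. Of proximal tubule cells 99.9% had an Fxyd2 UMI, and of principal cells 61%, or 99.2% and 36.9% after thinning to 1000 UMIs.

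Fxyd2 was also counted outside the tubule, at far lower levels. Macrophages held 257 to 422 CPM, endothelial cells 189 to 307, T lymphocytes 153 to 394 and natural killer cells 80.7 to 209. In leukocytes and endothelial cells together, Fxyd2 was at 0.79% to 4.6% of its proximal tubule level, and the medians of the 8 proximal tubule markers were at 0.768% to 2.49%. It was above the highest of the 8 markers in macrophages of the control (4.16% against 2.4%) and of the 60 min library (4.6% against 2.97%) and in T lymphocytes of the control (3.88% against 2.41%). Principal cells were at 14.4% in the control and 17.6% at 60 min beside marker medians of 2.19% and 1.99%. In the tumor, Fxyd2 had 843 UMIs in 281 of 17562 cells. Most of these UMIs sat in a few cells, since 33 cells with at least 5 UMIs held 497 of them, and 24 of the 33 were luminal cells. By type it was at 5.81 CPM in luminal cells, at 57.3, 4.56 and 6.35 in dendritic cells, the first from 26 UMIs in 32 cells, and at 0 UMIs in T lymphocytes and granulocytes.

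**Figure D3:**
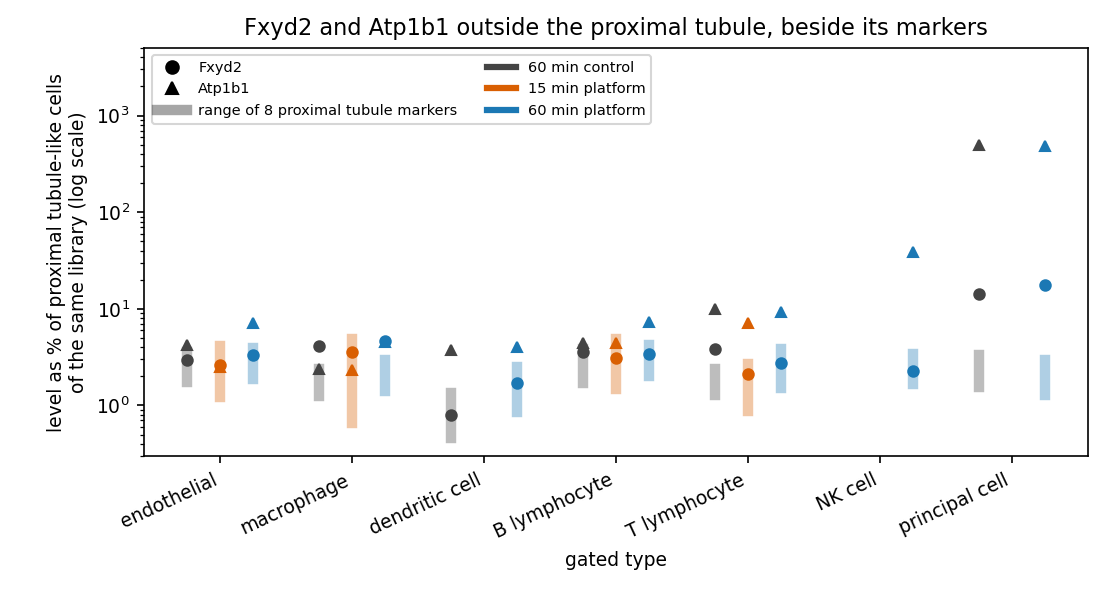
Fxyd2 (circles) and Atp1b1 (triangles) outside the proximal tubule, as the percent of their level in proximal tubule cells of the same library on a log axis, for libraries with at least 50 cells of the type. Bars span the 8 proximal tubule markers. Both genes lie above the bars in principal cells. Elsewhere Fxyd2 does so in macrophages of the control and 60 min libraries and in control T lymphocytes, and Atp1b1 in most libraries, farthest in natural killer cells.

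Fxyd4 belonged to the principal cells. They stood at 3014 CPM (2838 to 3198) in the control and 1905 (1788 to 2028) at 60 min, a ratio of 0.632 (0.579 to 0.69). The next types were endothelial cells at 19, 1.46 and 27.4, intercalated cells at 20.4, 17.3 and 18.7 and proximal tubule cells at 10.9, 8.84 and 14.5, and no other type exceeded 10.5 with the libraries summed. In the tumor, no type passed 1.13. Among principal cells, 68.5% had an Fxyd4 UMI, against 6.45% of proximal tubule cells, and 55.6% against 1.23% after thinning.

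The gate for principal cells rests on 6 genes, and dividing its cells by Aqp2, the water channel that defines these cells, showed a pair of profiles. The 218 cells with an Aqp2 UMI held 2579 CPM of Fxyd4 and 1116 of Fxyd2, while the 33 cells without one held 90.2 of Fxyd4, from 7 UMIs, and 6584 of Fxyd2. In the control, Fxyd2 was at 816 in 89 cells with Aqp2 and 7952 in 14 cells without it. At 60 min it was at 1260 in 119 cells and 5372 in 18 cells. Both libraries therefore had the same direction, with Fxyd4 at 3308 against 90.7 and at 2075 against 91. The 15 min library had only 10 cells with Aqp2 and 1 without. In those 10 cells Fxyd2, at 4291 (43 UMIs), was above Fxyd4, at 2295 (23 UMIs). Atp1b1 differed little between these cells, at 2923 with Aqp2 and 3041 without. Hsd11b2, the enzyme that protects the mineralocorticoid receptor from glucocorticoids, was at 3751 and 1881, and Scnn1b, a subunit of the epithelial sodium channel, at 714 and 399. Since Hsd11b2 and Scnn1b are genes of the gate, their presence in both is partly set by it. The split was made after the levels had been seen, and the identity of the cells without Aqp2 was not tested. Counted by cell, 87 of the 251 had UMIs of both Fxyd2 and Fxyd4, 85 of Fxyd4 only, 66 of Fxyd2 only and 13 of neither.

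**Figure D4:**
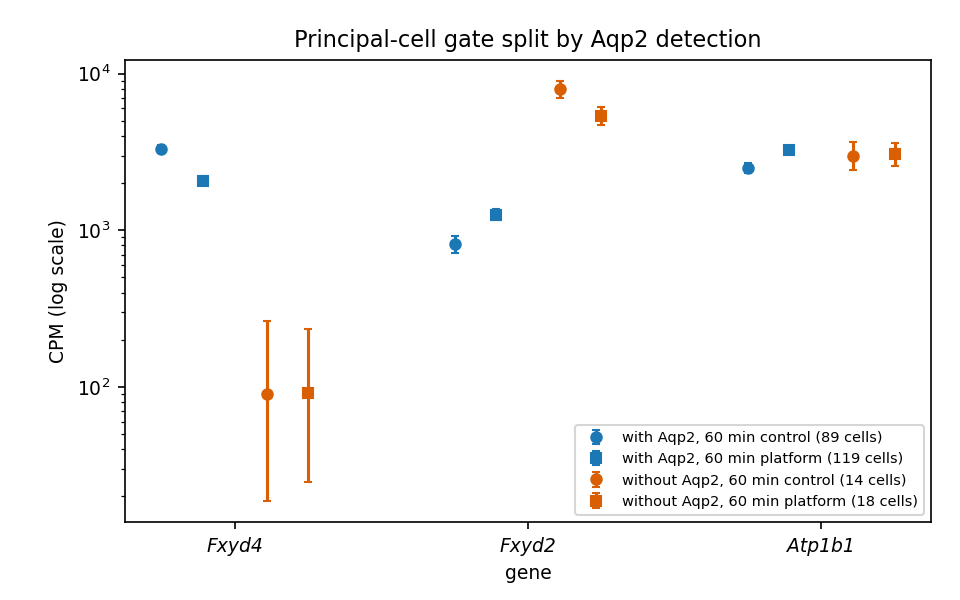
Levels of Fxyd4, Fxyd2 and Atp1b1 in cells of the principal cell gate with and without an Aqp2 UMI, in CPM on a log axis, for the 60 min control (circles) and the 60 min platform library (squares) with exact Poisson 95% intervals. Fxyd4 and Fxyd2 change places between the groups, while Atp1b1 differs far less.

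Within the proximal tubule, Fxyd2, Atp1b1 and Fxyd4 differed between cells of its early and late segments. Cells were called S1-leaning or S3-leaning by fixed markers of the early and the late segment, such as the glucose carrier Slc5a2 and the transporter Slc7a13, with at least 2 UMIs of 1 list and at least 4 times as many as of the other. Fxyd2 was at 11087, 8348 and 10183 CPM in S1-leaning cells and at 8387, 6041 and 6373 in S3-leaning cells. Atp1b1 went the other way, at 415, 657 and 581 in S1-leaning and 675, 888 and 919 in S3-leaning cells. Fxyd4 was low in both but higher in S1-leaning cells, at 18, 17.8 and 20.9 against 3.9, 3.24 and 3.79. Each of these 3 differences had the same sign in all 3 libraries. Atp1b3 did not, at 19.8, 23.5 and 21.5 against 19.2, 25.1 and 30.3, and Fxyd3, Fxyd5 and Fxyd6 had too few UMIs or changed sign.

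Set against Atp1b1, the other members came in very different proportions along the tubule. Per Atp1b1 UMI, proximal tubule cells carried 19.9, 9.15 and 13.6 Fxyd2 UMIs, intercalated cells 6.34, 9.79 and 5.17, distal convoluted tubule cells 4.97, 5.41 and 3.22 and thick ascending limb cells 4.12, 2.11 and 2.12. Each type overlapped with the next in this order. Principal cells carried 0.576 in the control and 0.501 at 60 min, below every library of the other types. There Fxyd4 was above Fxyd2 in both libraries, with 1.18 (1.08 to 1.29) and 0.592 (0.547 to 0.641) UMIs per Atp1b1 UMI. Atp1b3 stayed at 0.00792 to 0.0426 per Atp1b1 UMI over all these types. In luminal tumor cells it was at 0.979, 0.744 and 0.825, so both beta subunit transcripts were at similar levels, beside 50.4, 38.1 and 39.7 Fxyd3 UMIs. Basal tumor cells had more Atp1b3 than Atp1b1, at 4.43, 4 and 3.13 UMIs per Atp1b1 UMI, the first from only 7 Atp1b1 UMIs. These are ratios of captured RNA and say nothing of subunits in the membrane.

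Fxyd3 was the FXYD transcript of the tumor epithelium. Luminal cells held 1676 (1661 to 1691), 1774 (1760 to 1787) and 1626 CPM (1608 to 1643), and basal cells held 1566, 1676 and 1829. The libraries of the epithelia overlapped. Granulocytes followed at 70.4 with the libraries summed, then T lymphocytes at 25.6, macrophages at 19.5, endothelial cells at 17.6 and fibroblasts at 17.4. The types that are not epithelial were at 0.223% to 4.79% of the luminal level for Fxyd3 and at 0.496% to 3.55% for the median luminal marker. Cells with an Fxyd3 UMI made up 95.8% of luminal and 93.3% of basal cells, and 8.49% of endothelial cells, or 74%, 71.3% and 1.48% after thinning. Luminal cells with at least 2 of 5 cell cycle markers were called proliferating. They were set against luminal cells with none, and cells with a single marker were left out. Proliferating luminal cells had less Fxyd3 in each library, at 1144, 1293 and 857 against 1695, 1801 and 1681, from 95, 62 and 55 proliferating cells. Atp1b3 was higher in them, at 45.9, 52.9 and 68.8 against 32.1, 33.8 and 32.3. In the kidney, intercalated cells held 5, 0 and 2 Fxyd3 UMIs by library, of the 10, 0 and 17 in all kept cells. Among the other types, only 1 proximal tubule cell had a UMI, at no more than 0.0521 CPM in any library. The rest lay in cells without an assigned type.

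Fxyd5 was highest in granulocytes in both tissues, was also found in other leukocytes, endothelium and stromal types, and was low in epithelium. Kidney granulocytes held 3096 CPM in the control and 2478 at 60 min, with 2882 from only 9 cells at 15 min, and tumor granulocytes held 2098, 2409 and 1837. Dendritic cells, natural killer cells, macrophages and T lymphocytes of the kidney stood at 989, 978, 731 and 638 with the libraries summed, and tumor dendritic cells, T lymphocytes and macrophages at 842, 788 and 708. B lymphocytes were the exception among kidney leukocytes, at 110 to 136. Endothelial cells of the tumor held 591, 755 and 638 and those of the kidney 186, 216 and 171, so every tumor library was above every kidney library. These are cells of different mice, sexes and tissues in 1 library each. Fibroblasts of the tumor held 359, 189 and 213 and pericytes 208 with the libraries summed, against 179 in kidney endothelial cells. Basal cells of the tumor held 89.7, 88.5 and 43.1 and luminal cells 14.5, 11.2 and 13.7. In proximal tubule cells Fxyd5 was at 1.61, 0.465 and 6.72. Of tumor granulocytes 93.7% had an Fxyd5 UMI, against 8.29% of luminal cells, or 83.8% and 1.32% after thinning.

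Fxyd6 was a transcript of tumor fibroblasts and basal cells and of kidney endothelium. Tumor fibroblasts held 234, 182 and 446 CPM and basal cells 223, 270 and 444, and these overlapped. Luminal cells held 48.9, 65.1 and 92.7. In kidney endothelial cells, Fxyd6 stood at 75.7, 24 and 76.7, so the 15 min library was low and the other two were alike. The 46 kidney stromal cells had about the same summed level, 70.9 CPM from 17 UMIs, against 71.1 in endothelial cells, and distal convoluted tubule cells followed at 10.4. Tumor endothelial cells held 1.16, 11.4 and 31.6.

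In both tissues a minority of the endothelial cells carried these UMIs. In the kidney, 77 of 564 (13.7%), 18 of 364 (4.95%) and 365 of 2393 cells (15.3%) had an Fxyd6 UMI. When the kidney cells were clustered without the members, cluster 2 of the endothelium held 252, 120 and 257 CPM and cluster 1 held 8.99, 6.1 and 11.7. Cluster 2 was led by Ccl21a, Fxyd6 itself, Fibin and Igf1, and cluster 1 by Esm1, Sparcl1 and Kitl. It made up 149, 50 and 642 cells beside 414, 312 and 1727 of cluster 1. In the tumor, 1 of 316 cells (0.316%), 13 of 257 (5.06%) and 27 of 782 (3.45%) had an Fxyd6 UMI, with up to 40 UMIs in a single cell at 60 min. Those 41 tumor cells held 1508 CPM of Ccl21a, a chemokine of lymphatic vessels, against 2.27 in the other 1314 endothelial cells. Prox1, the transcription factor that sets lymphatic endothelium, was at 224 against 3.61, and Lyve1, a receptor of lymphatic vessels, at 109 against 0.31. The 460 kidney cells with an Fxyd6 UMI had Ccl21a at 164 against 8.99 and Igf1 at 772 against 102, with Prox1 at 12.3 against 3.7, Mmrn1, another gene of lymphatic endothelium, at 23 against 1.23 and no Lyve1 UMI in either. In the tumor, Mmrn1 was at 224 against 0.723. These genes were chosen after their values had been seen.

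Next, each platform library was set against the 60 min control of its tissue within each cell type, to see where members differed with processing. A gene and a type were compared where both libraries had at least 50 cells of the type and at least 1 had 20 UMIs of the gene, and pairs at least 2-fold apart were counted. In the kidney at 15 min, 4 of 26 member pairs in 6 types were past 2-fold, all lower than the control, beside 7.01% of all gene and type pairs (2.32% higher and 4.69% lower). At 60 min, 4 of 38 pairs in 9 types were past 2-fold, all higher, beside 5.97% of all pairs (4.87% higher and 1.09% lower). In the tumor, 2 of 22 pairs were past 2-fold at 15 min, both higher, beside 9.19% of all pairs (5.11% higher and 4.09% lower). At 60 min, 5 of 23 were past 2-fold, 2 higher and 3 lower, beside 6.32% of all pairs (3.33% higher and 2.99% lower). Most member pairs thus lay within 2-fold of the control in each comparison, and the counts past it are too small to be read apart from the background. The shared control enters both comparisons of a tissue.

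**Figure D5:**
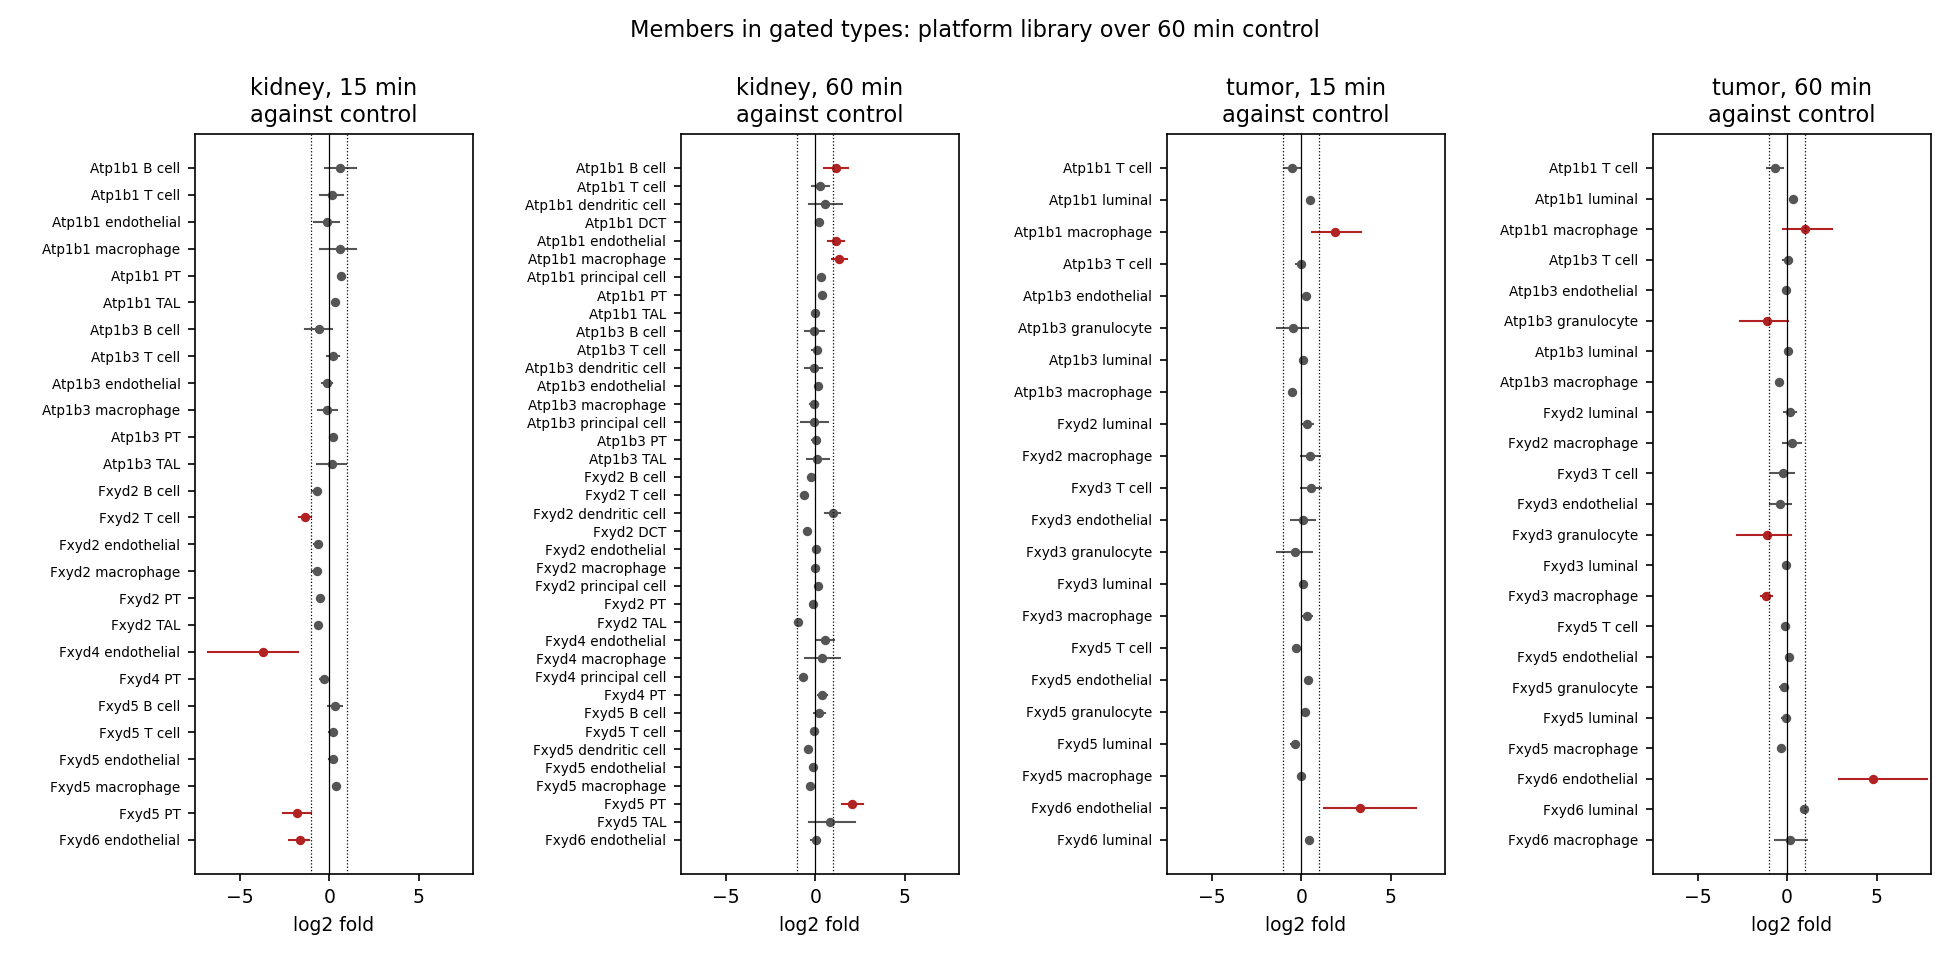
Fold of each member in each platform library against the 60 min control within cell types, on a log2 axis with 95% counting intervals. Red points are past 2-fold (dotted lines at -1 and 1), and most points lie between the lines.

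The main members of the transporting types stayed within 2-fold of the control. In proximal tubule cells, Atp1b1 at 15 min was 1.54 times the control (1.51 to 1.57), or 1.71 times with mitochondrial UMIs left out of the totals. Fxyd2 there was 0.707 times the control at 15 min. These cells had median mitochondrial shares of 10.7%, 21.7% and 15.5%, and its part in the result was not tested. In thick ascending limb cells, Fxyd2 was 0.643 times the control at 15 min and 0.511 times (0.493 to 0.53) at 60 min, or 0.74 and 0.562 without mitochondrial UMIs, with median mitochondrial shares of 23.7%, 36.9% and 32%. In luminal tumor cells, Fxyd6 at 60 min was 1.89 times the control (1.77 to 2.03).

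Several of the pairs past 2-fold were low levels of a member in a type where it is not the main transcript. Fxyd5 in proximal tubule cells was at 1.61 CPM against 0.465 at 15 min (31 and 26 UMIs), a fold of 0.288 (0.164 to 0.501), and at 6.72 at 60 min (124 UMIs), a fold of 4.16 (2.79 to 6.39). The 6 macrophage markers, all above 0 in each library, summed to 17.5, 4.32 and 36.2 in the same cells. The 5 T lymphocyte markers summed to 1.25, 0.375 and 2.87, and the granulocyte markers, 3 to 5 of 5 above 0 with Mmp9 at 0 in the control and Retnlg and Mmp9 at 0 at 15 min, to 0.885, 0.179 and 3.36. All of them have the order of Fxyd5, and their part in the result was not tested.

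Atp1b1 was past 2-fold at 60 min in 3 types of the kidney that do not transport salt. It was at 47.3 against 21.6 CPM in endothelial cells (451 and 50 UMIs), a fold of 2.19 (1.63 to 3). Macrophages had 30.7 against 12.2 (247 and 64 UMIs), a fold of 2.52 (1.91 to 3.38), and B lymphocytes 49.7 against 22.5 (107 and 24 UMIs), a fold of 2.21 (1.41 to 3.6). Markers of the thick ascending limb moved with it, and their part in the result was not tested. They summed to 24.6 in the control and 69.3 at 60 min in endothelial cells, with 5 of 5 markers above 0 in both. In macrophages they summed to 12.4 and 46.6, with 4 and 5 of 5 above 0, and in B lymphocytes to 8.43 and 37.1, with 3 and 4 of 5 above 0.

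At 15 min, Fxyd4 in kidney endothelial cells was at 1.46 against 19 CPM, from 2 and 44 UMIs, a fold of 0.0766 (0.00899 to 0.294). The 6 principal cell markers summed to 7.35 in the control and 1.46 at 15 min in these cells, with Aqp2, Aqp3, Avpr2, Scnn1g and Scnn1b at 0 at 15 min, and their part in the result was not tested. Fxyd6 in the same cells was at 24 against 75.7 (33 and 175 UMIs), a fold of 0.318 (0.212 to 0.463). Fxyd2 in kidney T lymphocytes was at 153 against 394 (96 and 370 UMIs), a fold of 0.387 (0.306 to 0.486), while the 8 proximal tubule markers there summed to 1328 at 15 min against 981. In proximal tubule cells themselves, the same markers summed to 95816 at 15 min against 65662, while Fxyd2 was at 7182 against 10152. Their part in the result was not tested. With clusters in place of gates the log2 fold of Fxyd2 was 0.10, against -1.37 with the gates, so its direction depends on how T lymphocytes were chosen.

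In the tumor, Fxyd6 in endothelial cells was at 11.4 at 15 min and 31.6 at 60 min against 1.16 in the control, from 22, 201 and 2 UMIs. The folds were 9.77 (2.4 to 85.7) and 27.2 (7.42 to 226), wide because the control had 2 UMIs. As given above, these UMIs lay in few cells, 13 of 257 at 15 min, 27 of 782 at 60 min and 1 of 316 in the control. Fibroblast markers in these cells summed to 27.9, 19.6 and 66.9, with 5, 6 and 6 of 6 above 0, and basal markers to 53.5, 44.9 and 51.8 with 2, 2 and 5 of 6 above 0. Their part in the result was not tested. Atp1b1 in macrophages was at 2.57 at 15 min and 1.42 at 60 min against 0.703, from 22, 23 and 7 UMIs, with folds of 3.65 (1.51 to 10.1) and 2.02 (0.841 to 5.59), the latter interval including no difference.

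Fxyd3 in macrophages was at 10.8 at 60 min against 24 (174 and 239 UMIs), a fold of 0.449 (0.367 to 0.548), and in granulocytes at 37.3 against 80.3 (5 and 47 UMIs), a fold of 0.465 (0.144 to 1.16). Luminal markers summed to 144 at 60 min against 276 in macrophages, with 7 of 7 above 0 in both. In granulocytes they summed to 358 against 870, with Cldn7 at 0 at 60 min. Their part in the result was not tested. Atp1b3 in granulocytes was at 44.8 against 99.1 from 6 and 58 UMIs, a fold of 0.452 (0.159 to 1.04).

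A fixed list of 32 other genes around the pump was read in the same way. In the kidney at 15 min, 8 of 44 pairs were past 2-fold, 3 higher and 5 lower than the control, beside the 7.01% of all pairs given above, and at 60 min 21 of 108, 20 higher and 1 lower, beside 5.97%. In the tumor, 6 of 33 pairs were past 2-fold at 15 min, 2 higher and 4 lower, beside 9.19%, and 3 of 34 at 60 min, 1 higher and 2 lower, beside 6.32%.

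Of the sodium entry genes, Slc9a3, the sodium-proton exchanger of the tubule, was 2.84 and 2.69 times the control in thick ascending limb cells at 15 and 60 min. Slc12a1, the sodium-potassium-chloride carrier of the thick ascending limb, was past 2-fold at 60 min in proximal tubule (3.49), endothelial (5.68) and macrophage cells (3.76). Slc12a3, the thiazide-sensitive carrier of the distal convoluted tubule, was so at 60 min in thick ascending limb (5.13), macrophage (3.57), T lymphocyte (2.49) and proximal tubule cells (2.11). The proximal glucose carrier Slc5a2 was past 2-fold in endothelial cells at 15 min (9.27) and 60 min (4.98), and at 60 min in macrophages (2.44) and proximal tubule cells (2.04). Several of these types are not known to use the carrier in question, and the levels there were low. In tumor macrophages at 15 min, Slc12a2 was at a fold of 2.02.

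Of the potassium channel genes, Kcnj1 was lower in proximal tubule cells at 15 min (0.119, from 8 and 23 UMIs) and higher at 60 min in endothelial cells (2.27) and macrophages (6.87, from 21 and 2 UMIs). Kcnj15 was past 2-fold in thick ascending limb cells at 60 min (3.02) and tumor endothelial cells at 15 min (2.74). It was also at 2 in kidney macrophages at 15 min, from 6 and 26 UMIs, with an interval (0.674 to 4.97) that includes no difference. Kcnj16 was past 2-fold in kidney macrophages at 60 min (2.18). Among genes that control sodium transport, Hsd11b2 was at 0.0792 of the control in proximal tubule cells at 15 min, from 6 and 26 UMIs. At 60 min Wnk4 was at 10.8 in kidney macrophages, from 33 and 2 UMIs, and Nedd4l, a ubiquitin ligase of the sodium channel, at 2.78 in B and 2.29 in T lymphocytes. Wnk1 was at 0.493 in tumor granulocytes at 15 min. Ank3 and Agrn, whose products interact with the pump, were past 2-fold at 60 min in kidney macrophages (2.4) and thick ascending limb cells (3.42). The Agrn fold came from 26 and 2 UMIs, and its interval (0.856 to 29.7) includes no difference. Atp1b2 was at 0.186 and 0.318 in luminal tumor cells at 15 and 60 min, from 6 UMIs each against 26.

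The kinase gene Sgk1, which acts on sodium channels and pumps and responds to steroids, was past 2-fold in several leukocyte types. In the kidney it was lower at 15 min in macrophages (0.437), B lymphocytes (0.466) and T lymphocytes (0.498), and at 60 min in B lymphocytes (0.416). In the tumor it was lower in granulocytes at 15 min (0.152, from 4 and 75 UMIs) and 60 min (0.349), and higher in T lymphocytes at 60 min (2.32). In luminal tumor cells at 15 min it was at 81.9 against 244 CPM, a fold of 0.336 (0.322 to 0.351). In those cells Atp1b1, Atp1b3 and Fxyd3 stayed within 2-fold of the control.

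The other genes of the list placed the members among their partners. Of the remaining pump genes in the list, Atp1b2 and Fxyd1 were found in stromal types, with Atp1b2 at 151 CPM in tumor pericytes and Fxyd1 at 221 in tumor fibroblasts, 150 in pericytes and 459 in the 46 kidney stromal cells (110 UMIs). Among channels and carriers of the tubule, Scnn1a was at 419 and the potassium channel Kcnj1 at 567 in principal cells beside Fxyd4 at 2362, Slc12a1 at 4313 in thick ascending limb and Slc12a3 at 6427 in distal convoluted tubule cells. Slc12a1 and Slc12a3 are also gate genes, so their levels there were set by the gates. Kcnj10 and Kcnj16, which form the basolateral channel that returns potassium taken up by the pump, were at 186 and 328 in principal and 102 and 229 in distal convoluted tubule cells. Wnk1 and Wnk4, kinases that control salt carriers, were at 2806 and 276 in distal convoluted tubule cells. In the tumor, Slc12a2, the carrier that brings sodium into secreting epithelia, was at 99.6 in luminal cells and 173 in pericytes.

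Across cell types, the genes most like each member were named by Pearson's r of log2(CPM + 10), over 12 kidney types and 6231 genes or 9 tumor types and 5551 genes, with no test, since the types share libraries. Atp1b1 was closest to Elovl7 (0.977), Serf1 (0.974) and Eno1 (0.968) in the kidney, and Fxyd2 to Rmnd1 (0.984), Pcbd1 (0.978) and Mcrip2 (0.972). For Fxyd4 the closest were Gprc5b (0.983), Tmem150c (0.98) and Aqp4 (0.98), the last a water channel of principal cells. Fxyd3 in the tumor was closest to C530043A13Rik (0.994), Car12 (0.991), a carbonic anhydrase, and Urah (0.991). Fxyd5 was closest to Rin3 (0.972), Actb (0.971) and Slc20a1 (0.97) in the kidney and to Crlf2 (0.989), Rin3 (0.968) and Capzb (0.968) in the tumor, with Rin3 in both lists. Fxyd6 was closest to Plxna2 (0.979), Slc9a3r2 (0.965) and Scarf1 (0.964) in the kidney and to Rdh10 (0.971), Sfrp1 (0.97) and Slc39a14 (0.97) in the tumor, with no gene shared. Atp1b3 had weaker matches, with Wapl (0.92), Esyt2 (0.889) and Anxa2 (0.887) in the kidney and Hprt (0.811), Srgap2 (0.787) and Tpst2 (0.775) in the tumor.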

How the data were processed

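The authors processed 10x v3 libraries with Cell Ranger 3.1.0 on mm10, joined those of a tissue with Cell Ranger Aggr, which brings libraries to like read depth, and deposited unfiltered UMI counts as whole numbers. From these counts, cells with 200 to 3000 (kidney) or 4000 (tumor) genes and at most 50% or 25% mitochondrial UMIs were kept, as in the study. Cells were typed by marker gates, whose thresholds were set after marker levels had been seen, and no deposited cell types were used. Doublets were limited by the gene maximum and by leaving out cells that passed several gates. UMIs were summed per library and type and scaled to 1000000 UMIs (CPM), with exact Poisson intervals, and shares of cells with exact binomial intervals (95%). A 0 was set to 3 UMIs for folds. Marker sums add the levels of a type's fixed marker list. Clusters (2000 variable genes without the members, 20 components, 20 neighbours, Leiden resolution 0.5) served as an alternative. All members are named, with the 3 genes most like each where it reached 50 CPM. The other genes of the fixed list are named where past 2-fold or highest of their group, and some genes are not reported here. The members, lists and gates were chosen with earlier results of these data known. The fold counting was tested on simulated data. Python 3.11.15, numpy 2.4.6, scipy 1.17.1, pandas 2.3.3, scanpy 1.11.5 and leidenalg 0.10.2 were used. Alternatives were all deposited cells, stricter gates, clusters, mean of per-cell levels, totals without mitochondrial UMIs, other fold and count limits and thinned shares. Leaving out cells with shared barcodes was chosen after seeing the data.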

Additional observations from a re-analysis of the deposited data

Results flagged for a closer look

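Fxyd6 in endothelial cells differed in direction between the tissues in the 15 min library against the 60 min control. It was lower in the kidney, by a log2 value of -1.65 (24 against 75.7 CPM, 33 and 175 UMIs), and higher in the tumor, by 3.29 (11.4 against 1.16, 22 and 2 UMIs). With 1 library per condition the difference between the tissues was not tested. In the kidney, cluster 2 of the endothelium, where Fxyd6 was highest, made up 149 of the control cells and 50 of the 15 min cells, and its level within that cluster was 252 and 120. In the tumor, 1 endothelial cell of the control held both UMIs.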

How the results depend on the processing

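No paired analysis was possible because each condition had 1 library, and for the same reason none could be left out in turn. The counts of member pairs past 2-fold depended on settings that change how many pairs are compared or called. In the kidney at 15 min (4), a 1.5-fold limit gave 10 and a minimum of 100 UMIs gave 2. At 60 min (4), the 1.5-fold limit gave 9 and a stricter gate 2. In the tumor at 15 min (2), all deposited cells gave 6, clusters 5, the stricter gate 1 and the minimum of 100 UMIs 0. At 60 min (5), all deposited cells gave 10 and the minimum of 100 UMIs 2, while clusters gave 4 of which only 1 was shared. Totals without mitochondrial UMIs and leaving out shared barcodes changed none of these 4 counts. Of 112 refits of the pairs past 2-fold, 99 kept their call, 12 lost it and 1 reversed. The reversal was Fxyd2 in kidney T lymphocytes at 15 min, at a log2 of 0.10 with clusters against -1.37, and -0.34 with the stricter gate. Atp1b1 in B lymphocytes at 60 min lost its call with clusters (0.79) and the stricter gate (0.58), and in kidney endothelial cells with the stricter gate (0.85). Fxyd3 in tumor macrophages lost it with all deposited cells (-0.57) and clusters (-0.93). The cause was not tested.

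Members were highest in the same kidney type under clusters for 3 of 6. Distal convoluted tubule, principal and intercalated cells shared 1 unnamed cluster, so the main types of Fxyd2 and Fxyd4 gave no values. Atp1b3 was highest in T lymphocytes (199) over natural killer cells (178), types with overlapping ranges under the gates. In the tumor, the share of cells with a UMI was highest in the same type before and after thinning to 1000 UMIs for 1 of 4 members. After thinning, Atp1b3 was highest in endothelial cells (16.3%) and Fxyd5 in granulocytes (83.8%), the same types as by level. Fxyd3 was then highest in luminal cells (74%) and Fxyd6 in basal cells (25.5%), while by level they were highest in basal cells and fibroblasts, with overlapping ranges. Types within overlapping ranges changed places, as Atp1b1 in principal (2891) over thick ascending limb cells (2829) with all deposited cells. Of 126 member levels per library under other settings, 65 moved beyond their counting interval. Fxyd5 in the kidney control and 60 min libraries stood at 142 and 151 CPM over all deposited cells, against 244 and 260. Depth limits Fxyd3 in the kidney and Fxyd4 in the tumor, where no library held more than 17 UMIs in kept cells.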
